A study of Mus musculus with 30 samples.

Results

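The 40 genes described here encode proteins of the extracellular matrix, and they were followed through all 10 groups of a microarray series on the neonatal mouse retina. A gene was taken from the array where the platform annotation gave its symbol as the only symbol of a probe set, and where several probe sets carried it, the one with the highest mean over the 30 arrays was used. By this rule 38 of the 40 genes were measured among 12393 genes in all, 11 of them basement membrane genes (collagen IV, laminin, nidogen and perlecan) and 27 stromal genes. For Fbn1, which encodes the microfibril protein fibrillin-1, no probe set was named, and the probe set of Loxl2, a collagen cross-linking oxidase, shares its annotation with another gene, so neither has a value here. Col15a1, Col18a1 and Agrn encode proteins that also lie in or next to basement membranes, but the rule places them with the stromal genes.

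The study used oxygen-induced retinopathy (OIR), in which pups of postnatal day 7 breathe 75% oxygen for 5 days with their nursing dams and new vessels grow into the damaged retina after the return to room air. Each group held 3 arrays, each from 1 retina of 1 pup. Normoxia pups were neither exposed nor injected, and OIR pups were exposed and not injected. The other 8 groups were exposed pups given an intravitreal injection, into the gel of the eye, either on P5 before the oxygen or on P12 at its end. On each day the injection was saline, 100000 endothelial colony-forming cells (ECFC), 10000 CD34+ cells, a blood stem and progenitor population, or the combination of both at 110000 cells; the cells were of human origin. All 30 samples are labelled P17, whereas the series design pairs injection at P5 with collection at P12, so a difference between a P5 group and the OIR, normoxia or P12 groups may also be a difference in age. Strain and litter are not given, and p-values measure the spread between these pups.

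Basement membranes are thin sheets under endothelium, around pericytes and along the inner surface of the retina. Laminin trimers of an alpha, a beta and a gamma chain and the collagen IV network form their layers, and nidogens and the proteoglycan perlecan (Hspg2) tie the layers together. Stromal matrix, made of fibrillar collagens, fibronectin, small proteoglycans and elastic fibres, is laid down by fibroblasts and perivascular cells, and is sparse in neural retina but abundant in the choroid, sclera and cornea.

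Values are log2 expression, as the authors deposited them, so a difference of 1 is a doubling. Genes that the animals cannot express, namely Y-linked genes on the 14 arrays with high Xist and Xist on the others, read between 3.61 and 5.7. Lum, encoding the corneal proteoglycan lumican, lay in that range on all 30 arrays, Lox, a collagen and elastin cross-linking enzyme, on 27 and Fbln2, an elastic fibre protein, on 10, so sizes of their differences are not read. The mean of a 13-gene photoreceptor list was between 12.18 and 12.59 on every array, as retina should show. A 15-gene lens list was between 6.35 and 9.07 on the arrays of the normoxia, OIR and P12 groups and between 7.75 and 13.99 on those of the P5 groups. Hybridisation control probe sets were between 13.23 and 13.65 on the P12 arrays and at or below 12.96 on all others.

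Col4a1 and Col4a2 encode the chains of the main collagen IV trimer. The start sites of their promoter windows lie 21 bases apart on opposite strands of chromosome 8. For Col4a1 that site is 11312826, whereas the gene coordinates place its start at 11312889. Their promoter windows, 250 bases before to 50 after each start, are printed because these genes share this DNA and are compared side by side throughout; capitals mark the 78 bases that both windows hold, read from opposite strands (RefSeq, GRCm38.p6, chr8:11312777-11313076 on the minus strand and chr8:11312555-11312854 on the plus strand).
Col4a1: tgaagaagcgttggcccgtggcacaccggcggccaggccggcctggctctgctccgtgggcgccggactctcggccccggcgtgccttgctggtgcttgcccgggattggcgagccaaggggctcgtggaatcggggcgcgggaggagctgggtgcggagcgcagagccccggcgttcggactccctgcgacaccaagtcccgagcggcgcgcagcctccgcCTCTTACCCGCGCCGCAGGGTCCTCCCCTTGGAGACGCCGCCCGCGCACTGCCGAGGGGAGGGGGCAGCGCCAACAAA
Col4a2: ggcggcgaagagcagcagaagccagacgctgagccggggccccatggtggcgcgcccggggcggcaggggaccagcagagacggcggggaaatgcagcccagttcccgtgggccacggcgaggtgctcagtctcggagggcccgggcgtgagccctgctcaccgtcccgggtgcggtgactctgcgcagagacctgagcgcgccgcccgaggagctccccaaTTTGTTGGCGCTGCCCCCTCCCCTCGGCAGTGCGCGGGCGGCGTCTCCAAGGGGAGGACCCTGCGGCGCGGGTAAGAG
The shared stretch is 73.1% G or C. Nid1, encoding nidogen-1, moved with them in several comparisons, and its window (chr13:13437352-13437651, plus strand) is printed with its single GC box, GGGCGG, in capitals.
Nid1: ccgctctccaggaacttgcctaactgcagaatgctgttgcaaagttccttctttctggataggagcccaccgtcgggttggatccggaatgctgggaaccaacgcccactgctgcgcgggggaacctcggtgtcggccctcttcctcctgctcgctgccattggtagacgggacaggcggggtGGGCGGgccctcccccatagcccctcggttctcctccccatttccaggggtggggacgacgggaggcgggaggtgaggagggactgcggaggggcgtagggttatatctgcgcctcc
Promoter entries were at hand for 27 of the 40 genes, in 33 windows of 300 bases. The hypoxia response core ACGTG, searched on both strands, was in 5 of the 33 windows, those of 4 genes (Col5a1, Col1a2, Mmp14 and Fbln1), and in 19.6% of 32851 windows of all genes. GGGCGG was in 22 of the 33 and in 35.7% of all, CCAAT in 10 and in 37.4%, and TATAAA in 2 and in 13.6%. A match of letters is a description and not a site.

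Across the 10 groups, normoxia had the lowest mean for 8 of the 11 basement membrane genes and for 13 of the 27 stromal genes. The highest mean lay elsewhere for each class: the P5 CD34 group was highest for 18 of 27 stromal genes and for 5 of 11 basement membrane genes, and OIR was highest for 4 basement membrane genes, Col4a2, Lama4, Lamb1 and Lamc1. How often each group was lowest or highest among all 12393 genes was not counted, so these counts say nothing particular to matrix genes. The 3 P5 CD34 pups differed widely among themselves, as their values below show.

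**Figure D1:**
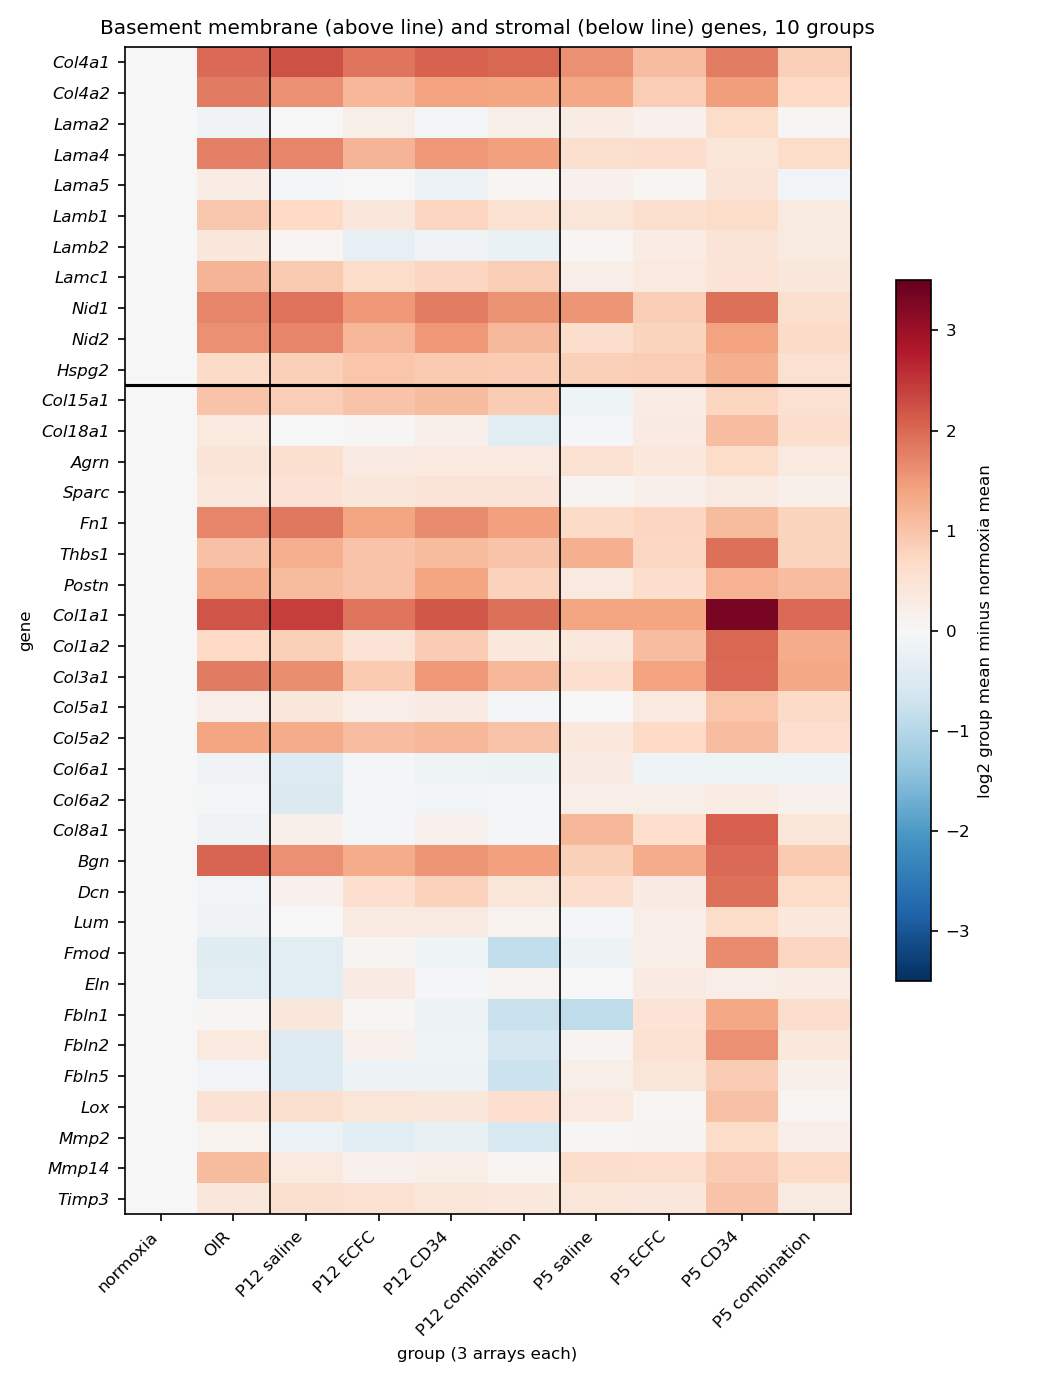
Colour map of group means minus the normoxia mean (log2, 3 arrays a group) for the 38 measured genes, basement membrane genes above the heavy line. Col4a1, Lama4, Nid1 and Nid2 are red in OIR and all P12 columns, and the deepest red stromal block is the P5 CD34 column.

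The comparison of OIR with normoxia asks what the oxygen exposure and the regrowth of vessels did to these genes. In OIR, 16 of the 38 genes rose and 0 fell at a limma Benjamini-Hochberg adjusted p under 0.05, where 4.56% of all 12393 genes passed 3.59% as higher and 0.968% as lower. Basement membrane genes made up 7 of the 16, of 11 measured, with a median difference of 1.19 over the 11. Of 27 stromal genes 9 rose, with a median of 0.38 over the 27, and the median of all genes was -0.02. Whether more vessel cells or more RNA per cell lies behind a higher level cannot be told apart in whole retina.

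Col4a1 read 10.69, 10.04 and 10.24 in normoxia and 12.09, 12.23 and 12.58 in OIR. Col4a2 read 10.05, 9.54 and 9.37 in normoxia and 11.16, 11.48 and 11.79 in OIR. Every OIR array was above every normoxia array for both chains. The differences were 1.98 ± 0.24 (SE, 3.94-fold, adjusted p = 1.7e-05) for Col4a1 and 1.82 ± 0.29 (3.54-fold, adjusted p = 0.00035) for Col4a2, and the other Col4a1 probe set gave 2.08.

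Among laminin chains, 3 of 6 rose: Lama4, Lamb1 and Lamc1, which form the vascular laminin trimer known as laminin-411. Lama4 read 7.70, 7.90 and 7.70 in normoxia and 9.39, 9.55 and 9.66 in OIR, a difference of 1.77 ± 0.20 with the lowest adjusted p of the 38 genes, 6.9e-06. Lamc1, the gamma chain common to most laminins, read 9.85, 9.65 and 9.49 against 10.72, 10.87 and 10.99, a difference of 1.19 ± 0.14 (adjusted p = 1.7e-05). Both genes separated the groups by more than the spread within either. Lamb1 rose by 0.93 ± 0.21 (adjusted p = 0.0086). Lama5, the other vascular alpha chain, differed by 0.27, Lamb2, the beta chain of synaptic and inner limiting membranes, by 0.39 and Lama2, a muscle and perivascular chain, by -0.13, with adjusted p of 0.17 or above.

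Both nidogens rose. Nid1 read 9.61, 8.68 and 9.07 in normoxia and 10.64, 10.75 and 11.13 in OIR (1.72 ± 0.38, adjusted p = 0.0078). Nid2 read 7.46, 7.06 and 7.42 against 8.56, 8.93 and 9.24 (1.59 ± 0.23, adjusted p = 0.00011). Hspg2, perlecan, read 8.51, 7.85 and 8.37 against 8.78, 8.83 and 9.14; the arrays did not overlap, but its difference of 0.67 ± 0.22 did not pass (adjusted p = 0.083).

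The stromal genes that rose most were Col1a1 (2.21 ± 0.58), the small proteoglycan Bgn (2.06 ± 0.27), Col3a1 (1.83 ± 0.40) and Fn1 (1.72 ± 0.30), encoding fibronectin. Bgn read 7.72, 7.50 and 7.87 in normoxia and 9.57, 9.77 and 9.92 in OIR, with an adjusted p of 4.1e-05. Fn1 read 9.44, 8.88 and 8.98 against 10.46, 10.60 and 11.41, with an adjusted p of 0.00089. These genes kept every OIR array above every normoxia array, though their OIR spread differed. Col1a1, a chain of collagen I, read 6.97, 6.44 and 7.14 against 8.31, 8.81 and 10.07, so that 1 OIR pup was far above the others (adjusted p = 0.028). Col3a1, the collagen of pliable tissue, read 7.12, 7.56 and 7.29 against 8.89, 9.07 and 9.48 (adjusted p = 0.0068). Mmp14, the membrane-bound collagenase, read 8.32, 7.96 and 7.97 in normoxia and 8.97, 9.15 and 9.47 in OIR (1.11 ± 0.17, adjusted p = 0.00019). Postn, a matricellular protein of remodelling tissue, read 6.82, 7.06 and 6.62 against 7.82, 8.31 and 8.22 (1.28 ± 0.20, adjusted p = 0.00021). Both had close replicates and no overlap. The further stromal genes that rose were Col5a2 (1.38), which helps nucleate collagen fibrils, Col15a1 (1.0) and Sparc (0.38), a collagen-binding matricellular protein.

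Of the genes that did not pass, the elastic fibre genes Eln, Fbln1 and Fbln5 differed by between -0.39 and 0.04, and collagens Col6a1, Col6a2 and Col8a1 by between -0.13 and -0.07. The small proteoglycans split, with Bgn higher and Dcn (-0.08) and Fmod (-0.42) at adjusted p of 0.56 or above. Thbs1, encoding the vessel inhibitor thrombospondin-1, read 6.20, 6.38 and 6.79 against 7.25, 6.99 and 8.22, without overlap, at an adjusted p of 0.12. In all, 20 of 38 genes had all OIR arrays above all normoxia arrays, a share of 12.9% among all genes.

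Col1a1 lost its call without any 1 of the arrays OIR 2, OIR 3 or normoxia 1, 2 or 3 (adjusted p between 0.053 and 0.21), and its other probe set gave 1.21 at an adjusted p of 0.17. Without OIR 3, 11 genes passed, and Col15a1, Col3a1, Lamb1 and Nid1 were lost with Col1a1. Vessel cell markers moved in the same comparison: the mean of 19 endothelial genes was 7.95 to 8.02 in normoxia and 8.85 to 8.93 in OIR with 11 genes higher, and that of 14 pericyte genes 7.71 to 7.80 and 8.58 to 8.82 with 10 higher. Of 8 meningeal and fibroblast genes outside the 38, Foxc2 (1.34), Foxc1 (1.13) and Pdgfra (0.61) were higher, with a list mean of 5.51 to 5.87 in normoxia and 5.98 to 6.06 in OIR. Of those 8, 6 in normoxia and 5 in OIR had a group mean at the unexpressed level. The part of these cells in the matrix result was not tested.

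**Figure D2:**
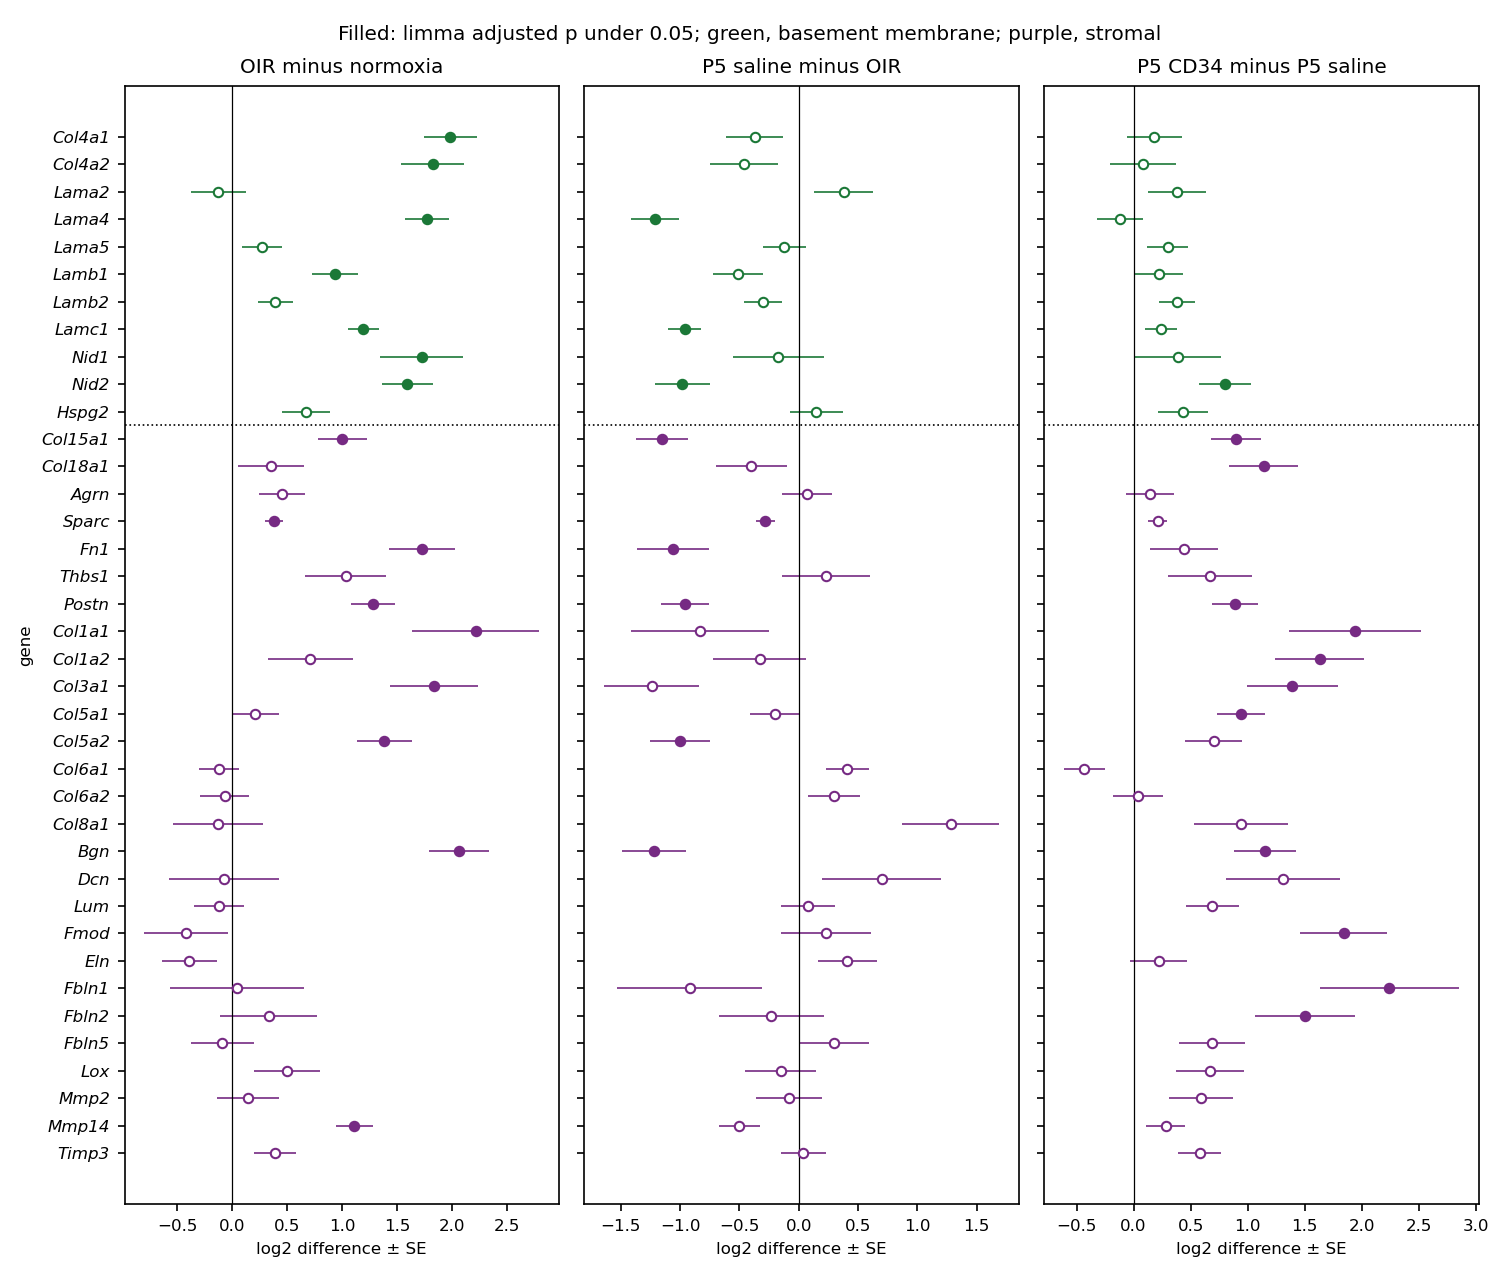
Log2 differences with SE bars for the 38 genes in 3 comparisons, from the fit over all 30 arrays; filled points passed the adjusted p of 0.05. In OIR minus normoxia 7 of 11 basement membrane points are filled, and in P5 CD34 minus P5 saline 1 of 11 basement membrane and 11 of 27 stromal points are.

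Genes that act on or bind these proteins were counted from lists. Of 17 measured genes for collagen folding and cross-linking, 8 rose in OIR, led by Serpinh1 (1.62 ± 0.18, adjusted p = 6.7e-06), the collagen chaperone, P4ha2 (0.92), a prolyl hydroxylase, and Plod1 (0.80), a lysyl hydroxylase. Of 20 matrix receptors 5 rose, led by the integrin chains Itga5 (0.88), which binds fibronectin, Itgb1 (0.70) and the laminin receptor chain Itga6 (0.84). Of 29 other stromal genes 6 rose, including Tgfbi (2.18), Mgp (1.80) and Col2a1 (0.92). Of 15 other basement membrane genes none rose and Lama3, an epithelial laminin chain, fell (-0.86, adjusted p = 0.043), while Plat, tissue plasminogen activator, was the only riser (1.22) among 17 proteases and inhibitors.

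Few matrix genes differed between saline given at P12 and OIR. Of the 38 genes, 1 fell and 0 rose, although 21.3% of all genes passed in this comparison, 5.95% as higher and 15.4% as lower. The gene was Mmp14, which read 8.97, 9.15 and 9.47 in OIR and 8.26, 8.48 and 8.5 in P12 saline (-0.78 ± 0.17, adjusted p = 0.0018). Its other probe set went the other way, by 0.15 at an adjusted p of 0.58, and the call was lost after adjustment for the hybridisation controls (-0.36, adjusted p = 0.24). In that fit 2 other genes passed, 1 higher and 1 lower. The control means were 13.253 to 13.484 in P12 saline and 12.445 to 12.523 in OIR, so they and group cannot be told apart there. Col4a1 read 12.42, 12.52 and 12.70 after P12 saline and Nid1 10.90, 10.91 and 11.22, both above every normoxia array; neither was called against OIR.

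None of the cell injections at P12 changed a matrix gene by limma against P12 saline. The share of all genes that passed was 0.0161% for ECFC, 0% for CD34 and 0% for the combination. At an unadjusted p under 0.05 there were 5, 0 and 2 of the 38 genes (13.2%, 0% and 5.26%), fewer than the 16.1%, 5.19% and 9.89% of all genes. After ECFC the lowest adjusted p was that of Eln, encoding elastin (0.68 ± 0.25, adjusted p = 0.22), and Nid2 read 8.81, 8.5 and 8.15 against 9.02, 9.01 and 9.02 in saline (-0.53, adjusted p = 0.27). After the combination Nid2 had the lowest p (-0.57 ± 0.23, adjusted p = 0.50), and after CD34 cells it was Col6a2 (0.41 ± 0.22, adjusted p = 0.92). Col4a1 differed by -0.35, -0.16 and -0.22 after ECFC, CD34 and the combination, Col1a1 by -0.56, -0.25 and -0.51 and Fn1 by -0.47, -0.19 and -0.40. On the 6 arrays with CD34 cells or the combination at P12, Col4a1 read between 12.06 and 12.60, against 12.42 to 12.70 on the P12 saline arrays, so these groups overlapped. These 3 comparisons share the P12 saline arrays, so their signs are not independent.

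Some vascular matrix genes in P5 saline were called against normoxia and others against OIR; the genes were not tested against each other. In the comparison with OIR, 9 of 38 genes fell and 0 rose, where 8.69% of all genes passed, 3.81% as higher and 4.88% as lower; the median was -0.37 over 11 basement membrane genes, -0.20 over 27 stromal genes and 0.02 over all genes. Against normoxia, 6 rose and 0 fell, where 8.1% of all genes passed, 3.91% as higher and 4.2% as lower. These comparisons share the P5 saline arrays, and each also shares a group with OIR against normoxia, so they are given side by side.

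Collagen IV and Nid1 in P5 saline were called higher than in normoxia and were not called against OIR. Col4a1 read 11.86, 12.22 and 11.72 there, above all normoxia arrays (1.61 ± 0.24, adjusted p = 0.00065) and overlapping OIR (-0.37, adjusted p = 0.37). Col4a2 read 10.96, 11.25 and 10.83 (1.36 ± 0.29 from normoxia, adjusted p = 0.0058, and -0.46 from OIR, adjusted p = 0.35). Nid1 read 10.80, 10.94 and 10.25 (1.54 ± 0.38 from normoxia, adjusted p = 0.014, and -0.17 from OIR, adjusted p = 0.83). For all 3 genes the lowest P5 saline array was above the highest normoxia array. Nid1 lost its call against normoxia without P5 saline 1 (1.48), P5 saline 2 (1.40) or normoxia 2 (1.32), at limma adjusted p of 0.053 to 0.065. Hspg2 was higher than in normoxia (0.82, adjusted p = 0.023), but its other probe set gave 0.18 at an adjusted p of 0.66. Thbs1 (1.25) and Mmp14 (0.61) were the stromal genes called, but Thbs1 lost its call without any 1 of the 6 arrays (adjusted p 0.053 to 0.16) and Mmp14 without any 1 of P5 saline 2 or 3 or normoxia 2 or 3. Both were also lost after adjustment for the hybridisation controls (0.99 and 0.40).

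Lama4, Lamc1 and Nid2 lay between normoxia and OIR in group mean and were called lower than in OIR. Lama4 read 8.26, 8.34 and 8.36 in P5 saline, below every OIR array (-1.21 ± 0.20, adjusted p = 0.0008). Lamc1 read 9.65, 10.07 and 9.99 (-0.96 ± 0.14 from OIR, adjusted p = 0.00047), and Nid2 read 7.37, 8.41 and 8.0 (-0.98 ± 0.23, adjusted p = 0.0098). From normoxia they differed by 0.56, 0.23 and 0.61, none passing. Nid2 lost its call against OIR without P5 saline 1 (-0.70, limma adjusted p = 0.089) or OIR 3 (-0.82, limma adjusted p = 0.066). The stromal genes that fell from OIR were Bgn (-1.22), Col15a1 (-1.15), Fn1 (-1.06), Col5a2 (-1.0), Postn (-0.96) and Sparc (-0.28). Fn1 read 9.89, 9.69 and 9.71, and its other probe set gave -0.34 at an adjusted p of 0.29. Without any 1 of the P5 saline arrays or OIR 3, Fn1 lost its call (limma adjusted p 0.064 to 0.17). Col1a1 (-0.83, adjusted p = 0.40) and Col3a1 (-1.24, adjusted p = 0.054) did not pass.

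Lens RNA moved with this group: the lens list mean was 13.68, 13.28 and 10.85 in P5 saline against 6.35 to 7.45 in OIR, and 15 of 15 lens genes were higher. Pigment epithelium RNA moved too, with a list mean of 8.46, 10.08 and 9.52 in P5 saline against 7.79 to 7.91 in OIR and 8.01 to 8.36 in normoxia; 6 of its 11 genes were higher than in OIR and 3 than in normoxia, and its part was not tested. After adjustment for the lens mean, Col4a1, Col4a2 and Nid1 differed from normoxia by 0.83, 0.38 and 0.10. Of these genes only Col4a1 passed, while Bgn (1.34), Fn1 (1.30) and Col8a1 (2.02) newly passed against normoxia. In this lens-adjusted fit Col4a1, Col4a2 and Nid1 differed from OIR by -1.28, -1.61 and -1.85, all passing. In the same fit Lama4 and Lamc1 stayed lower than in OIR, and the other 7 genes lost their call. Bgn shrank to -0.63 and Fn1 to -0.32, Col15a1, Col5a2 and Postn to between -0.80 and -0.61, and Nid2 (-0.89) and Sparc (-0.30) kept about their size. The 3 genes of collagen IV and nidogen-1 were then as low against OIR as Lama4 (-1.62) and Lamc1 (-1.21). The lens means of P5 saline (10.85 or above) and OIR (7.45 or below) did not overlap, so lens RNA and group cannot be told apart in that fit. No conclusion about the split between these genes is drawn from it. Col8a1, a short-chain collagen of corneal and vessel sheets, read 8.19, 9.80 and 9.57 in P5 saline against 8.06, 8.05 and 7.62 in OIR; its difference of 1.28 missed the threshold (adjusted p = 0.051) and was 2.29 in the lens-adjusted fit (adjusted p = 0.036). The count against OIR was 5 without OIR 3 and 4 in a fit of only the arrays compared; that against normoxia was 2 without P5 saline 2, 2 without normoxia 2 and 0 in the latter fit. Pericyte and endothelial genes were lower than in OIR too, 8 of 14 and 8 of 19, and the part of vessel cell numbers was not tested.

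Other collagen IV chains were also high after P5 saline: of 15 other basement membrane genes 5 rose from normoxia, led by Col4a3 (1.55 ± 0.32, adjusted p = 0.0048), Col4a4 (0.93) and Col4a6 (1.15), chains of collagen IV networks outside most vessels. Of 17 collagen processing genes 1 rose from normoxia (Serpinh1, 0.72) and 1 fell (Pcolce2, -0.59), and against OIR 1 rose (Loxl1, 0.96) and 4 fell, led by Serpinh1 (-0.90, adjusted p = 0.0036). Against P12 saline, 2 genes rose and 9 fell in P5 saline, where 27.7% of all genes passed, 19.2% as higher and 8.57% as lower, so 2 of 38 higher (5.3%) was below and 9 of 38 lower (23.7%) above the share of all genes in that direction. The collagen VI chains Col6a1 (0.75) and Col6a2 (0.73) rose, and the largest falls were in Fn1 (-1.18), Lama4 (-1.15), Nid2 (-1.09) and Col15a1 (-1.0). In the lens-adjusted fit 12 genes passed, but only 3 of them were among the 11 called here. Fn1 (-0.41), Col15a1 (-0.64), Nid2 (-1.0), Col6a1 (0.53) and Col6a2 (0.77) were among those lost. Col6a2 (0.47) was also lost after adjustment for the hybridisation controls. Neither covariate overlapped between these groups, so neither can be told apart from group in its fit.

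**Figure D3:**
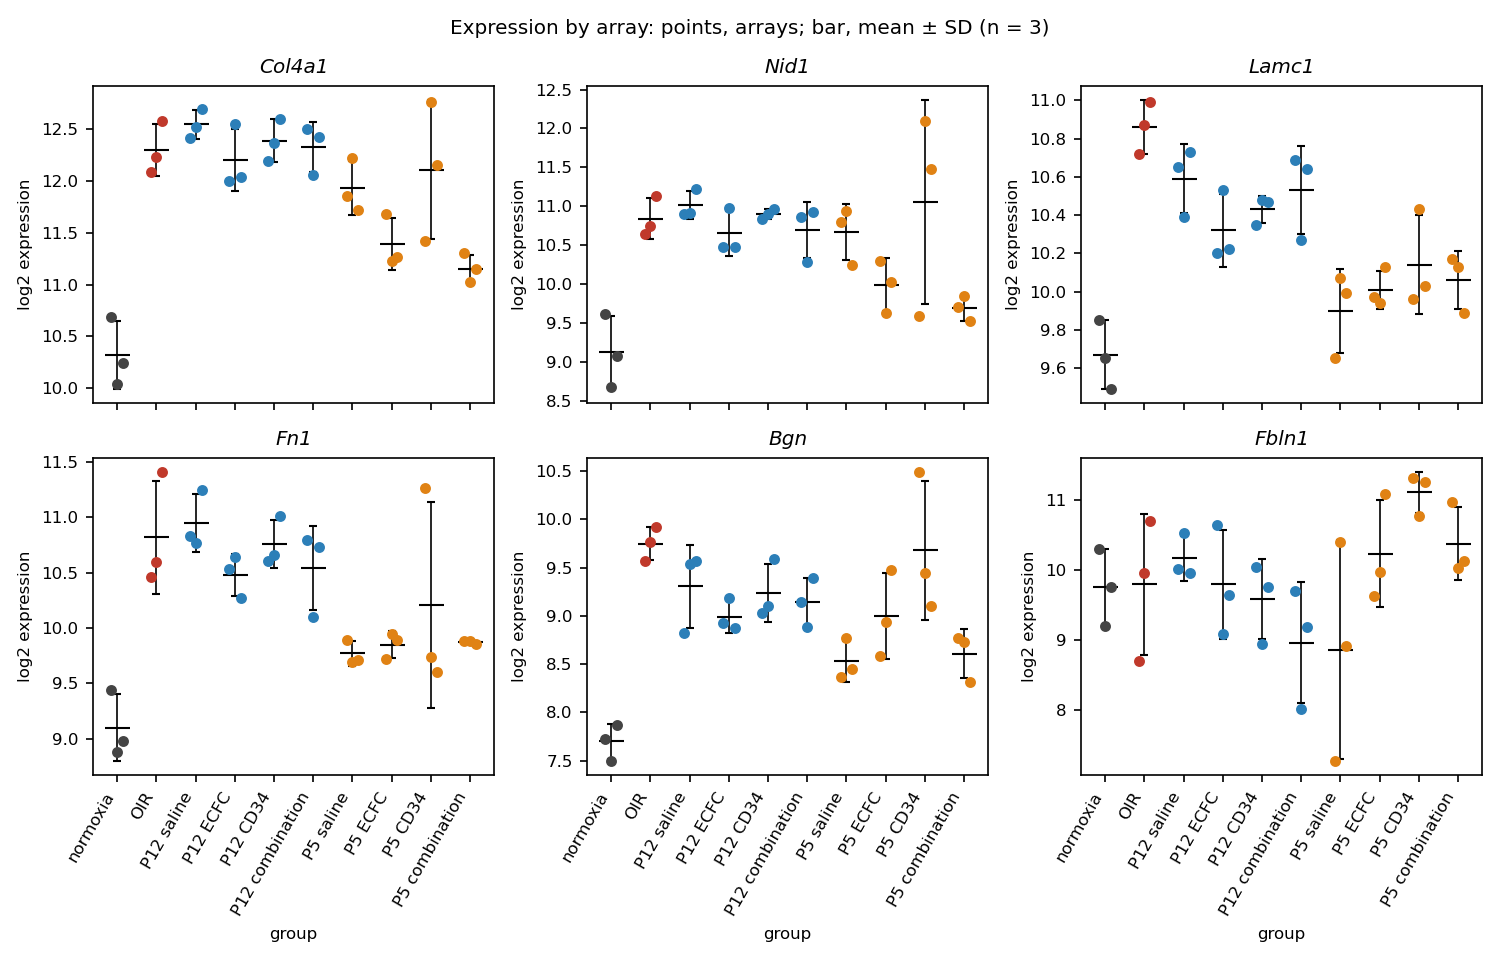
Log2 expression of 6 genes by array in all 10 groups (points), with mean and SD bars (n = 3). Lamc1 and Fn1 are near or below 10 in P5 saline and above 10.3 in OIR and P12 saline, whereas Col4a1 and Nid1 overlap OIR there.

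After CD34+ cells given at P5, stromal genes above all were called against saline. Against P5 saline 12 of 38 genes rose and 0 fell, where 8.46% of all genes passed, 3.07% as higher and 5.4% as lower. Stromal genes made up 11 of the 12, of 27 measured (median 0.70), and Nid2 was the only basement membrane gene of 11 (median 0.30); the median of all genes was -0.03. For 14 genes every CD34 array was above every saline array, against 7.42% of all genes.

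Fmod, the collagen-binding proteoglycan fibromodulin, had the lowest adjusted p. It read 9.34, 10.13 and 9.28 in P5 saline and 12.13, 11.09 and 11.05 in P5 CD34 (1.84 ± 0.38, adjusted p = 0.0051), and its other 5 probe sets rose by 1.29 to 1.64. Fbln1, an elastic fibre and basement membrane linker, read 7.28, 10.40 and 8.91 in saline and 11.30, 10.77 and 11.25 after CD34 cells (2.24 ± 0.61, adjusted p = 0.023). Its saline arrays were spread over more than 3 log2 units, while the CD34 arrays lay close together.

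Fibrillar collagens rose in 4 of 5 cases. Col1a1 read 8.70, 8.49 and 7.50 in saline and 10.25, 10.73 and 9.52 after CD34 cells (1.94 ± 0.58, adjusted p = 0.041). Col1a2, the partner chain of collagen I, read 8.56, 8.62 and 8.39 against 11.11, 9.80 and 9.53 (1.63 ± 0.39, adjusted p = 0.012). Neither chain's arrays overlapped between the groups. Col3a1 rose by 1.39 ± 0.40 (adjusted p = 0.032) and Col5a1 by 0.94 ± 0.21 (adjusted p = 0.0073), while Col5a2 (0.70, adjusted p = 0.076) did not pass. Further risers were Col18a1 (1.14), the source of endostatin, Bgn (1.15), Col15a1 (0.90), Postn (0.89) and Fbln2. Fbln2 read 4.91, 6.84 and 5.94 in saline and 8.79, 6.60 and 6.81 after CD34 cells, so its groups overlapped. Nid2 read 8.94, 8.66 and 8.58 against 7.37, 8.41 and 8.0 in saline (0.80 ± 0.23, adjusted p = 0.032).

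The 3 CD34 pups did not share 1 pattern. Pup 1 was the highest for Fn1 (11.27 against 9.74 and 9.60), Fbln2 (8.79 against 6.60 and 6.81), Mmp2, the gelatinase (9.77 against 8.25 and 7.99), and Lox (7.22 against 5.58 and 5.39). The Lox values of pups 2 and 3 were within the unexpressed range, so only the order is read for Lox. Pups 2 and 3 were the highest for Nid1 (12.10 and 11.48 against 9.59), Col4a1 (12.76 and 12.16 against 11.42) and Dcn, the proteoglycan decorin (9.19 and 8.51 against 7.24). None of these 7 genes but Fbln2 passed against saline. The lens list was at 7.75 in pup 1 and at 13.99 and 13.89 in pups 2 and 3, so Nid1, Col4a1 and Dcn were high where lens RNA was high, and Fn1, Fbln2, Mmp2 and Lox where it was low.

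Pigment epithelium RNA was high in all 3 CD34 pups, with a list mean of 10.50, 10.16 and 10.29 against 8.46, 10.08 and 9.52 in saline, and 4 of 11 of its genes rose. Of 12 corneal and scleral genes 0 rose and 1 fell, but the list mean was 6.81, 8.11 and 7.25 against 6.99, 7.16 and 6.91 in saline. Pups 2 and 3 were thus above every saline array, pup 2 the furthest. Of the 12, 4 in P5 CD34 and 5 in P5 saline had a group mean at the unexpressed level. Kera, the corneal keratocan gene, was within the unexpressed range on all 30 arrays. Krt12, the corneal epithelial keratin, was at 9.76 in pup 2 and at or below 6.74 on every other array. Of 14 pericyte genes 1 rose, and of 8 meningeal and fibroblast genes outside the 38 none. Of those 8, 6 in P5 saline and 4 in P5 CD34 had a group mean at the unexpressed level, so their count says little. The part of these tissues in the stromal result was not tested. Of 15 lens genes 0 were called, and with the lens mean as a covariate 13 of the 38 genes passed, among them all 12. The lens mean was 7.75, 13.99 and 13.89 within the CD34 group, so neither result can decide on lens RNA. Its part was not tested.

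The count rested on few arrays: 4 genes passed without P5 saline 3, 6 without P5 saline 1, 8 without P5 CD34 1 (4 of them among the 12), and 0 in a fit of only these 6 arrays. Adjusting for the hybridisation controls gave 19 genes. Col1a1 lost its call without P5 saline 2 or 3 or P5 CD34 1 or 2, at adjusted p between 0.067 and 0.17. Beside the 38 genes, Serpinh1 (0.89), Loxl1 (1.19), a lysyl oxidase of elastic fibres, and Tgm2 (1.46), a cross-linking transglutaminase, rose among 17 collagen processing genes, Itga6 (0.83) and Sdc1 (1.09) among 4 risers of 20 receptors, and Col4a5 (1.30) and Col4a6 (1.08) among 15 other basement membrane genes.

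**Figure D4:**
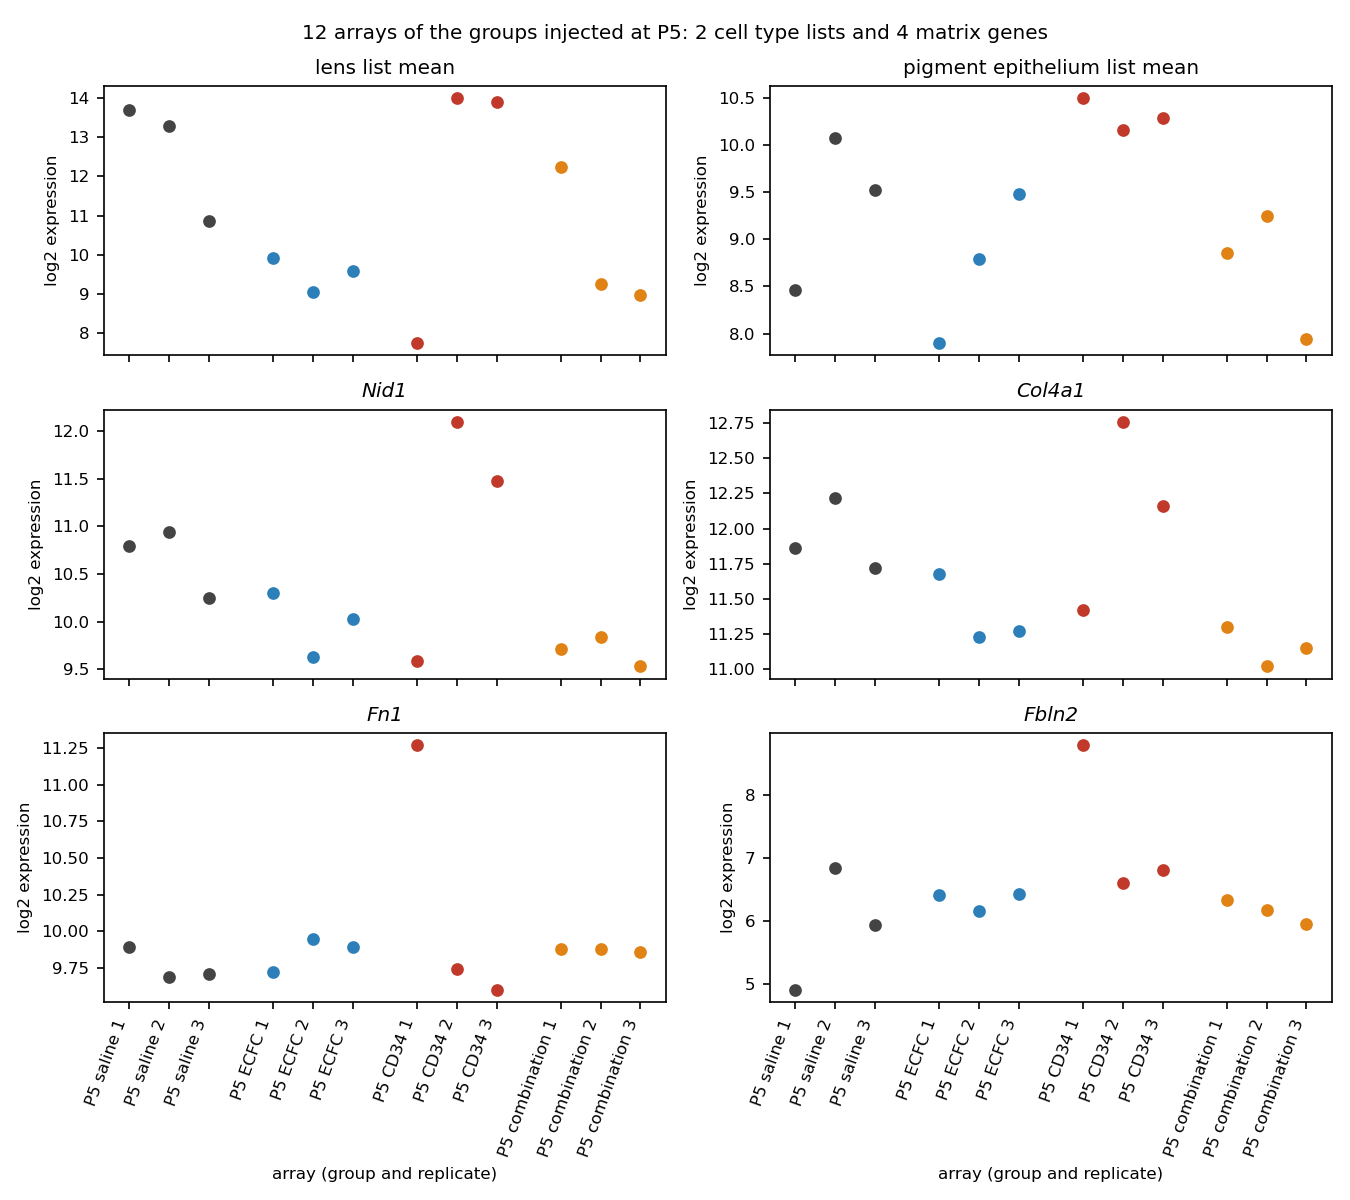
Log2 values on the 12 arrays of the P5 groups for the lens and pigment epithelium list means and for Nid1, Col4a1, Fn1 and Fbln2. P5 CD34 array 1 stands apart with the lowest lens mean of the 12 (7.75) and the highest Fn1 (11.27) and Fbln2 (8.79).

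Matrix genes were lower after the P5 combination than after CD34 cells alone at P5. Of 38 genes 7 fell and 0 rose, where 7.83% of all genes passed, 4.27% as higher and 3.56% as lower. Col4a1 read 11.30, 11.02 and 11.15 after the combination, below every CD34 array (-0.96 ± 0.24, adjusted p = 0.016). Nid1 read 9.71, 9.84 and 9.53, which overlapped CD34 pup 1 (-1.36 ± 0.38, adjusted p = 0.028). Col8a1 fell most, from 11.13, 9.27 and 9.99 to 8.61, 9.15 and 7.63 (-1.66 ± 0.41, adjusted p = 0.013). Bgn (-1.07), Nid2 (-0.74), Hspg2 (-0.71) and the metalloproteinase inhibitor Timp3 (-0.69) also fell, Nid2 and Hspg2 at an adjusted p that rounds to 0.05. Col1a1 (-1.33, adjusted p = 0.19) and Col3a1 (-0.61, adjusted p = 0.44) did not pass. Without P5 combination 1, 2 or 3 the count was 3, 4 or 1, and it was 0 in a fit of only these arrays. Nid1 lost its call without any 1 of these arrays except CD34 1, and was -0.84 without CD34 2; Col4a1 lost its call without CD34 2 (-0.63) or combination 2 (-0.89). Pigment epithelium genes were also lower after the combination, 6 of 11, and the part of that tissue was not tested. The lens list had a median difference of -1.57 with 0 of 15 genes called, and with its mean as a covariate Nid1 (-0.87) and Col4a1 (-0.69) passed at an adjusted p of 0.016. Because of the wide lens spread in the CD34 group, these values decide nothing about lens RNA, whose part was not tested.

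Against P5 saline, neither ECFC nor the combination at P5 changed a matrix gene by limma, and 0% of all genes passed in either comparison. At an unadjusted p under 0.05 there were 3 of 38 genes after ECFC (7.89%, against 6.29% of all genes) and 11 after the combination (28.9%, against 7.89% of all genes). All arrays lay below all saline arrays for 3 genes after ECFC and 4 after the combination, against 6.08% and 9.24% of all genes, so these counts were near the background. Both collagen IV chains were among them: Col4a1 read 11.68, 11.23 and 11.27 after ECFC (-0.54, adjusted p = 0.74) and differed by -0.78 after the combination (adjusted p = 0.38), and Col4a2 by -0.51 and -0.66. Lens RNA was lower in these groups too, with list means of 9.92, 9.05 and 9.58 after ECFC and 12.24, 9.26 and 8.97 after the combination against 13.68, 13.28 and 10.85 in saline (median differences -3.40 and -2.67, 0 of 15 genes called); its part was not tested. Postn had the lowest adjusted p after the combination (0.75 ± 0.20, adjusted p = 0.28) and Col6a1 after ECFC (-0.45, adjusted p = 0.68).

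Whether an injection acted differently at P5 and P12 was tested as an interaction. None of the 38 genes passed by limma for ECFC (0.0323% of all genes passed), CD34 (1.9%) or the combination (0%), with 4, 15 and 9 genes at an unadjusted p under 0.05 (10.5%, 39.5% and 23.7%, against 11.9%, 17% and 11.5% of all genes). For CD34 the lowest adjusted p was that of Col5a1 (0.058), whose difference from saline was 0.94 at P5 and -0.13 at P12. Serpinh1 (1.33 ± 0.26, adjusted p = 0.017) and Itga6 (1.0, adjusted p = 0.036) passed that test among the processing and receptor genes. Stromal genes passed against saline after CD34 cells at P5 and not at P12, but for none of the 38 genes was the effect shown to differ between the days.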

How the data were processed

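Total RNA of 1 retina per pup was amplified, biotin-labelled and hybridised to 1-colour mouse arrays, 3 arrays in each of 10 groups. The table holds log2 expression as deposited by the authors for 22690 probe sets (64 controls), with Partek named per the submitters' processing notes; background correction, normalization and summarisation were not given in the sources used here, and no further scaling was applied. With 3 arrays a group, their number limits the precision. Gene symbols came from the platform annotation: 20380 probe sets had 1 symbol, 691 several and 1555 none; 29 gene identifiers were absent from the RefSeq table used.

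For each gene the probe set of highest overall mean was tested for 12393 genes in limma 3.58.1 (R 4.3.3) with 1 mean per group over 30 arrays, 20 residual degrees of freedom and Benjamini-Hochberg adjustment over all genes; a gene was called at an adjusted p under 0.05. SEs come from that fit. All members could be named: in each comparison up to 4 called basement membrane and 4 called stromal genes in each direction, 10 members whatever their values, and up to 3 called genes of each other list; genes beyond the rule, such as those that tell the P5 CD34 pups apart, were chosen after their values were seen. Members, lists and tests were chosen with earlier results of these data known. On simulated data for OIR against normoxia over 12393 genes, changes of log2 0.5, 1 and 2 were called for 46.3%, 83.6% and 98.5% of changed genes, with 9 false calls. No pair of arrays held identical values. Labels share replicate numbers between groups, but correlations of same-numbered residuals lay between -0.453 and 0.445 and in no comparison were all 3 above 0.1, so samples were not treated as paired.

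Alternatives were quantile normalization, median centring, leaving out the dimmest 30% of genes, a fit of only the arrays compared, a replicate block, the lens list mean or the hybridisation control mean (18 probe sets) as a covariate, the mean of all probe sets per gene, and leaving out each array. Promoter windows are RefSeq's on GRCm38.p6; the array files name no build.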

Additional observations from a re-analysis of the deposited data

How the results depend on the processing

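The counts of members called kept within 1.5 times of the reported count under quantile normalization, median centring, the mean of all probe sets and the replicate block in every comparison, though members could be exchanged. With the replicate number as a block the count was 16 for OIR against normoxia, 13 in place of 12 for P5 CD34 against P5 saline and 6 in place of 7 for the P5 combination against P5 CD34; the samples share only a number, and no pairing was found. In fits of only the arrays compared, the count was 15 for OIR against normoxia and 16 in place of 11 for P5 saline against P12 saline. For P12 saline against OIR it was 3 in place of 1, and for P5 saline against OIR 4 in place of 9. It was 0 for P5 saline against normoxia, P5 CD34 against P5 saline and the P5 combination against P5 CD34. These fits have fewer arrays and take the spread from the compared groups alone, whereas the reported fit shares 1 spread over all 10 groups. Spread differed between groups: the SD of Col4a2 was 0.95 in P5 CD34 and 0.35 in normoxia. SEs of the reported fit can thus be too small for the wider groups. With adjustment for the hybridisation control mean it was 2 for P12 saline against OIR, 1 for P5 ECFC, 19 for P5 CD34 and 4 for the P5 combination against P5 saline, 11 for the P5 combination against P5 CD34, and 2, 9 and 3 for the ECFC, CD34 and combination effects at P5 against P12; the cause was not tested. The CD34 effect at P5 against P12 held 1 member with dim genes left out and 1 with the lens mean as a covariate.

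Leaving out each array in turn gave 11 to 16 members for OIR against normoxia, 1 to 1 for P12 saline against OIR, 5 to 9 for P5 saline against OIR, 2 to 5 for P5 saline against normoxia, 10 to 14 for P5 saline against P12 saline, 4 to 14 for P5 CD34 against P5 saline, 1 to 7 for the P5 combination against P5 CD34, 0 to 2 for the CD34 effect at P5 against P12, and 0 to 0 for the other cell comparisons. Single differences were followed for the members called in a comparison and the 10 members named whatever their values. Among these, no called difference changed sign. Hspg2 in P5 saline against P12 saline was the only uncalled one to pass with the opposite sign, from -0.02 to 0.88 (limma adjusted p = 0.021) after the same adjustment. Over these members and all settings, 2600 differences stayed on the same side of the threshold, 164 no longer passed and 44 newly passed. Direction was not compared for differences that passed in neither fit. Signal over background limits Lum, Lox and Fbln2.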
